A study of Mus musculus with 24 samples.

Results

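Radial glia line the ventricle of the developing brain, divide to give neurons and later glia, and send a long process to the surface of the cortex along which newborn neurons climb. The 10 genes described here are read as signs of these cells and of the progenitors they give rise to, and were taken by gene symbol, each matching 1 of the 48709 genes in the count table. Pax6 and Sox2 encode transcription factors of progenitors, and Eomes, which encodes TBR2, marks the intermediate progenitors that arise from radial glia. Hes1 and Hes5 are repressors that Notch signalling switches on to keep progenitors undifferentiated. Nes and Vim encode the intermediate filaments nestin and vimentin, Fabp7 encodes the brain fatty acid binding protein BLBP, and Hopx and Tnc (tenascin C, an extracellular matrix protein) are best known as markers of outer radial glia. In the mouse most radial glia leave the cell cycle or turn into astrocytes and ependymal cells around birth, and several of these genes stay on in astrocytes, in ependymal cells and in the stem cells of the ventricle wall.

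The cortex of neonatal mice, labelled as C57BL/6J and as 3 to 5 days old, was compared between pups whose mothers breathed nPM, a nano-sized fraction of traffic-related particulate matter collected near a freeway and re-aerosolized, and control pups whose mothers breathed filtered air in like chambers. The dams were exposed on 3 days of each week of pregnancy, for 5 h at a time, and the labels give the nPM level as 300 mg/m3 although the methods of the study use micrograms, name the C57BL/6NJ substrain and give the last of those days for collection. Each exposure group held 3 female and 3 male cortex libraries, and 12 blood libraries of the same design served as a background level. Each library was of whole tissue from the cortex of a pup, so fewer cells of a type and less RNA per cell cannot be told apart. The cortex libraries held 22301409 to 33804371 counts, and 8 of them were sequenced in lane 2 and 4 in lane 3, with both exposures and both sexes in each lane. All 10 genes had counts in all 12 cortex libraries, the lowest being 24 counts for Eomes, so none was lost to the filter on low counts. No 2 cortex libraries were copies of each other. Sox2 lies inside the noncoding gene Sox2ot on the same strand, and 5 others (Pax6, Eomes, Hes5, Hopx and Tnc) overlap a weakly counted gene on the opposite strand, so that some of their reads may have been left out or shared.

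Of the 10 genes, Fabp7 and Hes5 are shown here by the 250 bases before their RefSeq start on mouse build GRCm38.p6, because Fabp7 is the gene on which the exposure comparison turns and Hes5 is a textbook target of Notch. The Notch partner RBPJ binds DNA at GTGGGAA, and these letters were searched on both strands, together with their core TGGGAA, in 32851 promoters of that length. Capitals mark each match. The Hes5 window is chr4:154960673-154960922 on the plus strand, and the Fabp7 window is chr10:57784673-57784922 on the plus strand.
Hes5: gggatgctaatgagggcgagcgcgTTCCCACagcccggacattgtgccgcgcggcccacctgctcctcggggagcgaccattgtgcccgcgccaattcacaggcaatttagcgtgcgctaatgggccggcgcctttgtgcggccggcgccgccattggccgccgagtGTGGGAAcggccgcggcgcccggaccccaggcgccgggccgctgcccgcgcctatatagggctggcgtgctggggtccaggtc
Fabp7: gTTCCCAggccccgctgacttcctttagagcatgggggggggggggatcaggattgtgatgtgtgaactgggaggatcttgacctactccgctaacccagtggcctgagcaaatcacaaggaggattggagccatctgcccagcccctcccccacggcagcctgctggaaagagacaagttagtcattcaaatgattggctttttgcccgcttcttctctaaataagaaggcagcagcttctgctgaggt
Hes5 held GTGGGAA on both strands, with the leftmost base of the core at 226 and 82 bases before the start. Only 0.0548% of all promoters held GTGGGAA on both strands, while 5.42% held it on either strand. The window of Fabp7 held the core alone, at its far end, and 21.6% of promoters held the core. A window was found for 9 of the 10 genes (not for Hes1), and the core was present in 3 of them, the third being Tnc, for which 1 of 2 windows also held GTGGGAA, on 1 strand. These matches describe the letters only.

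Fabp7 was by far the most abundant of the 10 genes. On a scale that corrects for gene length (RPKM, counts per kilobase of gene at equal library totals), its level was 274 ± 40.6 (SD, n = 12 cortex libraries), 21.1 times that of Tnc, the next gene, and it was the higher in 12 of 12 libraries. Tnc (13.03 RPKM), Sox2 (12.01), Hes5 (11.3), Vim (10.3) and Hopx (9.18) followed close together, and within these 5 each gene was above the next in only 7 or 8 of the 12 libraries, so neighbours in this stretch did not differ beyond their spread. Hopx was above Nes in 12 of 12. Nes (4.71 RPKM) was above Hes1 (3.92) in 10 of 12 libraries. Pax6 (0.672 RPKM) and Eomes (0.593) were lowest, and Pax6 was above Eomes in 9 of 12. The length used for each gene was the 1 supplied with the counts, such as 11694 bases for Pax6 and 4743 for Vim. These lengths were not matched to the transcripts present in cortex, so the order holds per annotated length only. The spread between libraries was 9.2% to 18.5% of the mean for 9 genes and 87.5% for Eomes, whose highest values came from a pair of libraries described below.

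**Figure D1:**
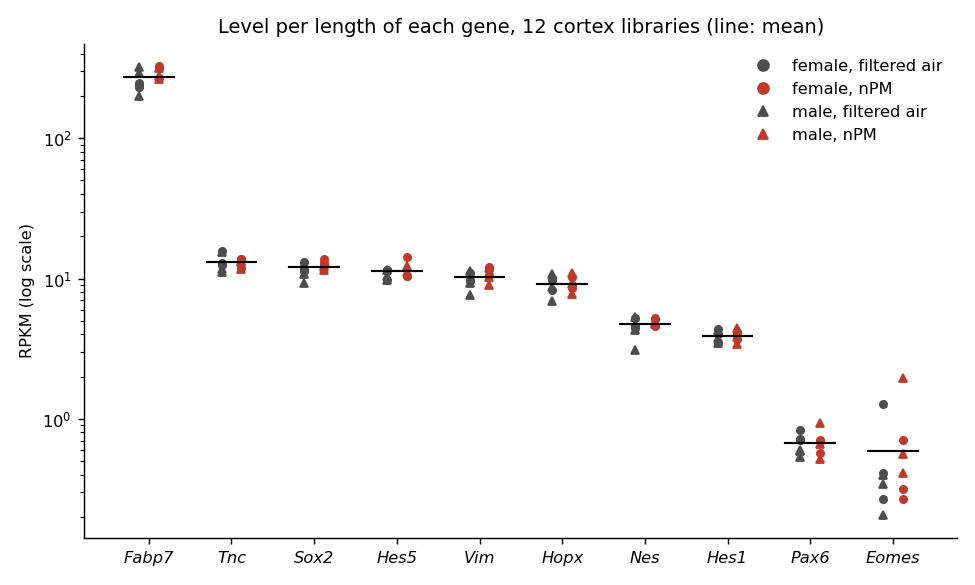
RPKM (log axis) of each gene in the 12 cortex libraries, with grey for filtered air, red for nPM, circles for females, triangles for males and a line at the mean. Fabp7 stands 21.1 times above Tnc, and the Eomes points are the most spread.

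The first question was whether prenatal nPM exposure changed these genes in cortex over both sexes. In model 1 (exposure with sex and RNA integrity number as covariates, edgeR's quasi-likelihood test), 9 of the 10 genes were higher and 1 was lower in nPM cortex, with a median log2 fold change of 0.12 against -0.0024 over all 20857 genes tested. No gene passed at a Benjamini-Hochberg adjusted p under 0.05, where 0.0144% of all genes did. At an unadjusted p under 0.05 the count was 1 of 10, where the background over all genes was 5.67%. That gene was Fabp7. The 95% intervals of the other 9 spanned 0. With genes tested that had a count in any library, in place of every library, Fabp7 had an adjusted p of 0.0113 in an edgeR fit that called 0.57% of 32461 genes.

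Fabp7 encodes a carrier of long-chain fatty acids that is found in radial glia and in immature astrocytes. In controls its level ran from 253 to 402 TMM-scaled CPM (CPM, counts at equal library totals, here after TMM correction for composition), with a mean of 319 ± 56.4 (SD, n = 6), and in nPM cortex from 333 to 403, with a mean of 367 ± 33.2 (SD, n = 6). The groups overlapped, and the exact two-sided permutation test over the 12 libraries gave p = 0.106. The fitted log2 fold change was 0.21 (SE 0.096, 95% interval 0.0082 to 0.42, edgeR unadjusted p = 0.0425, adjusted p = 0.862). Within lane 2 it was 0.087 (edgeR unadjusted p = 0.194). Within lane 3 the ratio of mean CPM, without TMM correction or covariates, was 0.47 on the log2 scale. That lane held 1 library of each sex and exposure, with the lowest Fabp7 value of all 12 libraries among its controls.

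The second question was whether the sexes responded alike. In females, Fabp7 was 299.9, 289.7 and 296 TMM-scaled CPM in the 3 controls and 335, 397 and 403 in the 3 nPM pups. All 3 nPM females lay above all 3 control females, and the controls differed from each other by far less than the nPM pups did. Fabp7 rose 1.28-fold with exposure in females, a log2 fold change of 0.36 (SE 0.068, 95% interval 0.21 to 0.51, edgeR adjusted p = 0.0292 over 21731 genes). It was the only 1 of the 10 to pass in females at that threshold, which 1.11% of all genes passed (0.216% of all genes as higher). The exact permutation test of the same 6 values gave p = 0.1, the smallest that 3 against 3 allows.

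The rise was present in both lanes, at 1.24-fold for 2 against 2 females in lane 2 and 1.36-fold for 1 against 1 in lane 3. Its call did not outlast the loss of most single libraries. The log2 fold change was 0.28 to 0.44 when each female library was left out in turn, but the adjusted p passed only without nPM female replicate 1 (0.0045) and lay between 0.111 and 0.182 without any of the other 5, in fits of 2 against 3. In the same fit the 5 markers of choroid plexus, the tissue that secretes cerebrospinal fluid, had log2 fold changes of 0.12 to 0.32 (Ttr the highest, adjusted p = 0.121). Of 4 markers of ependyma, the lining of the ventricle, Rarres2 (0.54), Tmem212 (0.42) and Foxj1 (0.33) had positive values and Ccdc153 a negative one (-0.18), none with an adjusted p under 0.05. With the mean standardised level of the 5 choroid plexus markers as a covariate, the Fabp7 log2 fold change in females was 0.29 (adjusted p = 0.142), and with that of the 8 ventral progenitor and striatal markers it was 0.34 (adjusted p = 0.207).

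In males, Fabp7 was 374, 402 and 253 TMM-scaled CPM in controls and 333, 391.6 and 344 in nPM pups. The male groups overlapped throughout, with control male replicate 3 (V24) the lowest of all 12 libraries, and the log2 fold change was 0.14 (SE 0.17, 95% interval -0.23 to 0.52, adjusted p = 0.967). By lane, the male nPM mean was 0.934 times the control mean in lane 2 and 1.36 times in lane 3. Without V24 the male log2 fold change was -0.11. The test of the difference between the sexes, the interaction term of model 2, gave -0.28 for males minus females (SE 0.19, 95% interval -0.70 to 0.13, adjusted p = 0.669), so a different response of the sexes was not shown.

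Vim and Nes encode the intermediate filaments. Vim was 50.3, 46.0 and 45.2 TMM-scaled CPM in control females and 50.4, 57.7 and 54.9 in nPM females. The female groups did not overlap on this scale, though the lowest nPM value stood only just above the highest control, and they did overlap in plain CPM, and the log2 fold change was 0.21 (SE 0.066, unadjusted p = 0.00765, adjusted p = 0.149). In males the Vim values were 37.4, 53.5 and 45.1 in controls and 48.5, 55.9 and 42.5 in nPM pups, and these overlapped. Over both sexes the Vim log2 fold change was 0.16 (95% interval -0.016 to 0.33, adjusted p = 0.866).

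Nes ran from 20.6 to 34.0 TMM-scaled CPM in controls and from 29.4 to 34.0 in nPM cortex, and no nPM library lay above the controls. Its log2 fold change was 0.13 over both sexes (95% interval -0.062 to 0.33), 0.10 in females and 0.31 in males (unadjusted p = 0.0881). Under other settings of the same male libraries the male value was 0.057 to 0.31. In males the lowest value was that of control male replicate 1 (V14) at 20.6, while the other male controls were at 34.0 and 28.1 and the nPM males at 31.9, 30.9 and 30.5. Without V14 the male log2 fold change was 0.073 (unadjusted p = 0.544).

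Library V14 was the lowest of the 12 for 5 of the 10 genes (Eomes, Sox2, Nes, Vim and Tnc). It was also nearly devoid of choroid plexus RNA. Ttr, the thyroid hormone carrier that the choroid plexus secretes, was at 27.2 TMM-scaled CPM in V14 and between 224 and 484 in the other 11 libraries. The sum of the 5 choroid plexus markers was 30.4 in V14 and 234 to 505 elsewhere. V14 was also lowest for the summed endothelial markers (107, against 149.6 to 160.8 elsewhere) and mural cell markers (192.6, against 233 to 275). So it was, by smaller margins, for cycling, Notch, other radial glia, intermediate progenitor, oligodendrocyte precursor, ependymal and ventral lists. It was not the lowest for outer radial glia, astrocyte, meningeal, excitatory neuron, red cell or olfactory bulb lists. Without V14 alone, the log2 fold change over both sexes was 0.050 for Nes, 0.11 for Vim and 0.26 for Fabp7. Without V14, V10 and V15 together (the last a pair described next), the log2 fold change over both sexes was 0.11 for Nes and 0.10 for Vim, and for Fabp7 0.27. With the mean standardised level of the choroid plexus markers as a covariate in model 1, it was 0.012 for Nes, 0.063 for Vim and 0.061 for Sox2, and 0.24 for Fabp7 (unadjusted p = 0.047). Because V14 lay far below the other 11 libraries in these markers, this covariate may in large part set V14 against the rest. With the ventral markers as the covariate, Fabp7 was at 0.18 (unadjusted p = 0.144).

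**Figure D2:**
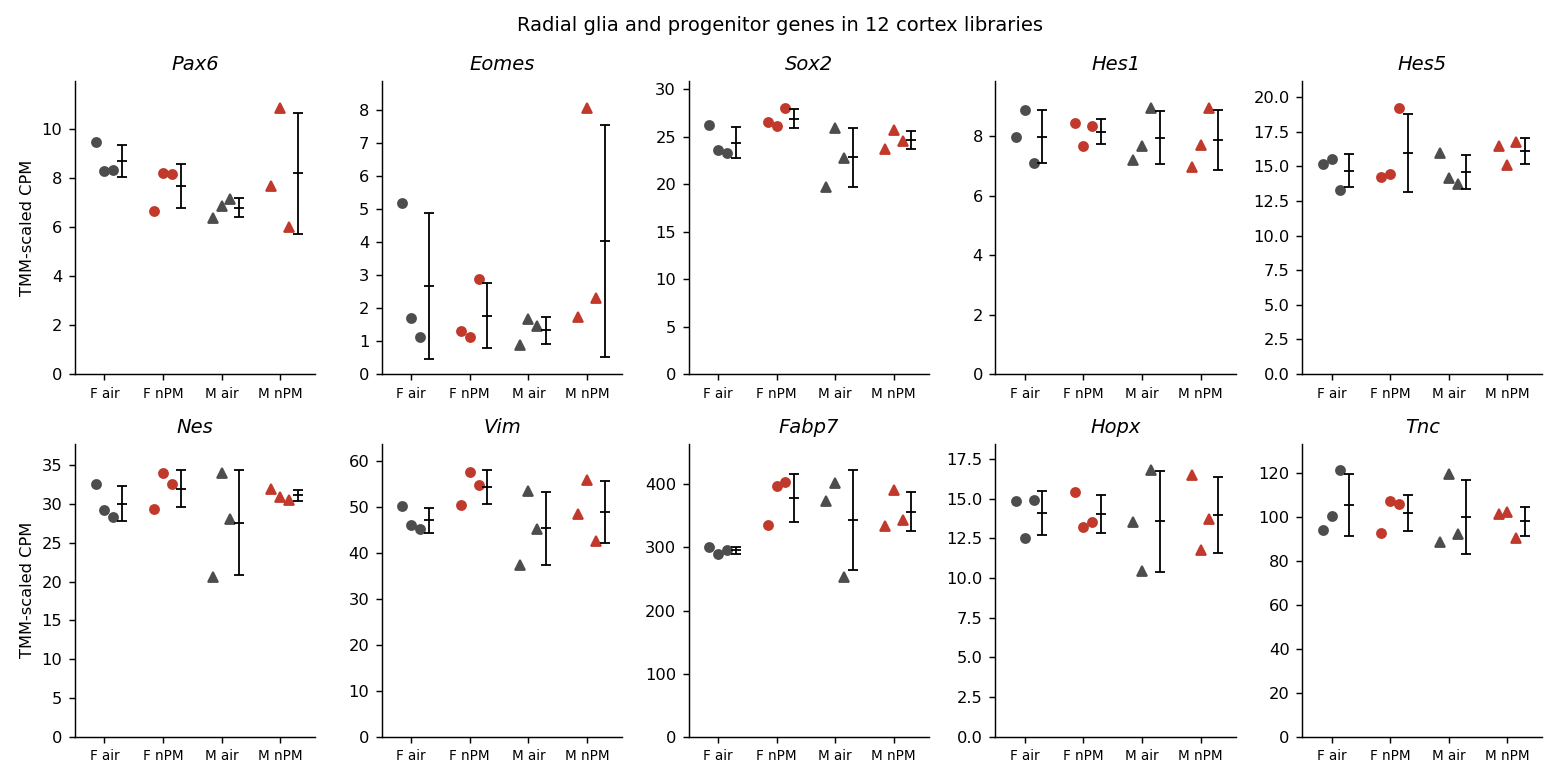
TMM-scaled CPM of the 10 genes in female (F, circles) and male (M, triangles) cortex, grey for filtered air and red for nPM, with the mean and SD of each group of 3 beside its points. The 3 nPM females lie above the 3 control females for Fabp7, and the single high Eomes points are library V10 among control females and V15 among nPM males.

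The transcription factors Sox2 and Pax6 did not pass after adjustment either. Sox2, a factor that keeps neural stem cells undifferentiated, ran from 19.8 to 26.3 TMM-scaled CPM in controls and from 23.7 to 28.1 in nPM cortex. Its log2 fold change was 0.12 over both sexes (95% interval -0.012 to 0.26, adjusted p = 0.866, exact permutation p = 0.0801) and 0.16 in females (unadjusted p = 0.0331, adjusted p = 0.278). Together with Fabp7 and Vim it made 3 of 10 genes at an unadjusted p under 0.05 in females, all higher, where 15.4% of all genes passed (6.41% of all genes as higher).

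Pax6, the master regulator of dorsal progenitors, was 9.47, 8.31 and 8.35 TMM-scaled CPM in control females and 6.67, 8.21 and 8.20 in nPM females. The nPM females all lay below the control females, by little in 2 of them, and the log2 fold change was -0.16 (95% interval -0.43 to 0.11, adjusted p = 0.579). In males it was 0.10 (95% interval -0.40 to 0.61). Groups that did not overlap were thus seen for 3 of 10 genes in females (Fabp7, Vim and Pax6), for Eomes alone in males, and for none over both sexes. Over all genes tested, 21.1% had groups that did not overlap in females, 9.2% in males and 0.197% over both sexes.

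Eomes gave the largest numbers and the least certain ones. In males it was 0.875, 1.66 and 1.45 TMM-scaled CPM in controls and 1.72, 8.07 and 2.32 in nPM pups. The male groups did not overlap, and the log2 fold change was 1.38 with a 95% interval of -0.14 to 2.91 (adjusted p = 0.962). In females it was 5.19, 1.69 and 1.12 in controls and 1.30, 1.12 and 2.90 in nPM pups, with a log2 fold change of -0.15 (95% interval -0.68 to 0.38). The female means were 2.67 in controls and 1.77 in nPM pups. The fit adjusts for RNA integrity number, which was 9.4 in the control at 5.19 and 9.4 to 9.9 over all cortex libraries. Under other settings of the same female libraries the log2 fold change was -0.62 to -0.072. Over both sexes the log2 fold change was 0.45 (95% interval -0.33 to 1.23, adjusted p = 0.886), and the interaction did not pass. Under the looser filter, which keeps a gene counted in at least 1 library, Eomes had an edgeR adjusted p of 0.000836 in males and 0.0304 for the interaction, where 0.507% and 1.17% of all genes passed.

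The extreme values belonged to control female replicate 1 (V10) and nPM male replicate 2 (V15). These 2 libraries also held the most RNA of olfactory bulb projection neurons, the mitral and tufted cells, which keep Eomes on after their birth. Cdhr1, a cadherin of mitral and tufted cells, was at 32.2 TMM-scaled CPM in V10 and 36.4 in V15 and between 10.6 and 18.7 in the other 10 libraries. Tbx21, a transcription factor of the same cells, was at 0.916 and 1.76 there and at no more than 0.223 elsewhere, and Doc2g was the highest in the same 2 libraries. This list of 3 markers was chosen after the values had been seen. V10 and V15 did not stand apart in these markers only. The summed ventral progenitor and striatal markers were also highest in them, at 106 and 96.9, against 55.0 to 83.5 elsewhere. In the summed meningeal fibroblast markers V10 alone stood apart, at 271, against 84.4 to 169 elsewhere. Without V10 and V15 the Eomes mean was 1.36 ± 0.35 TMM-scaled CPM in controls and 1.87 ± 0.74 in nPM cortex (SD, n = 5 each), the log2 fold change was 0.34 (unadjusted p = 0.248) and the interaction went from 1.29 to 0.32. Without V15 alone the Eomes log2 fold change was 0.033 over both sexes, 0.76 in males and 0.66 for the interaction. Without V10 alone it was 0.71 over both sexes and 0.045 in females. Without V14 alone it was 0.22 over both sexes and 0.92 in males. Pax6, which olfactory bulb interneurons also express, was likewise highest in V15 and V10, at 10.9 and 9.47, and its log2 fold change over both sexes went from 0.033 to -0.066 without them.

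**Figure D3:**
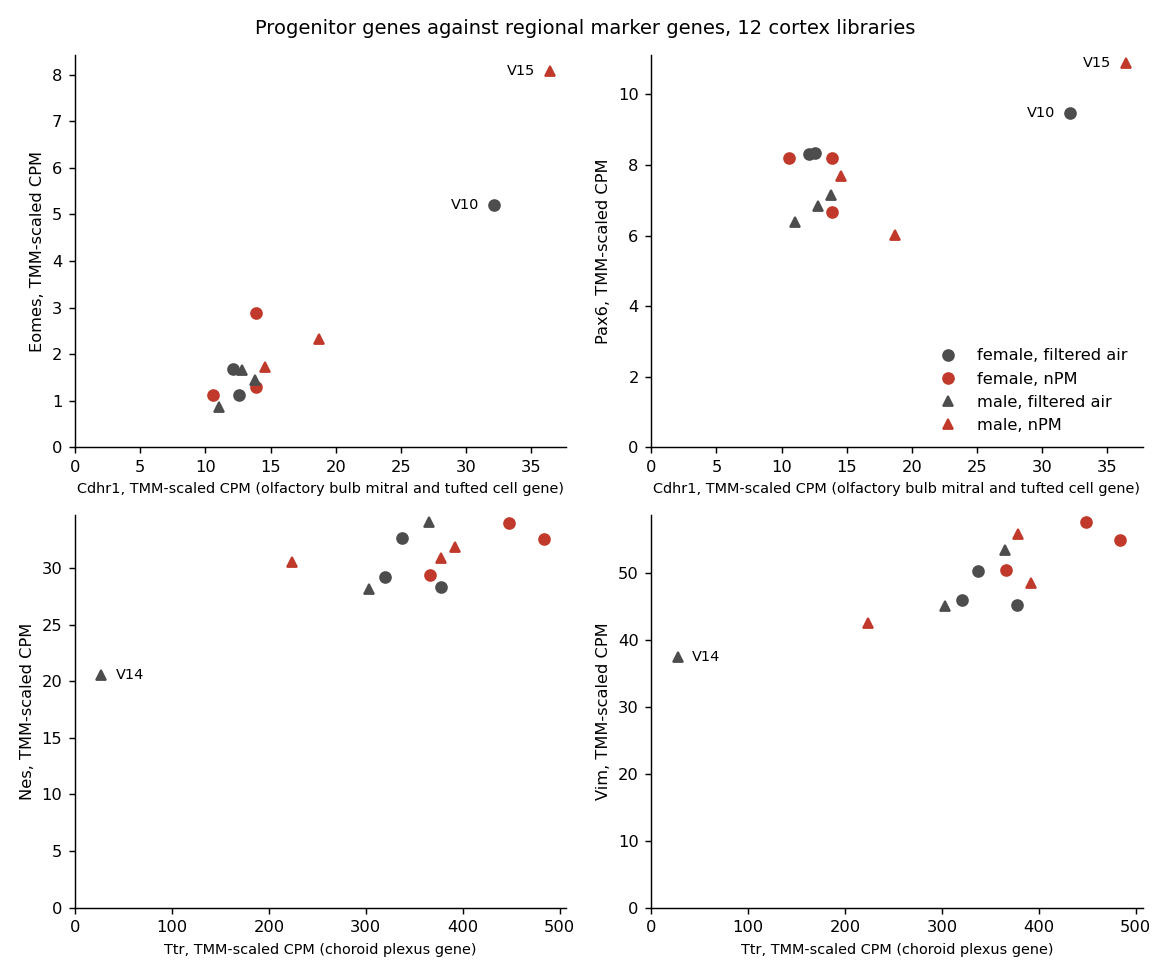
TMM-scaled CPM of Eomes and Pax6 against the olfactory bulb gene Cdhr1 (upper row), and of Nes and Vim against the choroid plexus gene Ttr (lower row), 1 point per cortex library with linear axes from 0. V10 and V15 are alone at the upper right for Eomes, and V14 has a Ttr level of 27.2 against 224 to 484 in the others.

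The Notch effectors did not pass the test over both sexes. Hes1 was 7.97 ± 0.80 TMM-scaled CPM in controls and 8.01 ± 0.70 in nPM cortex (SD, n = 6 each), with a log2 fold change of 0.0060 and a 95% interval of -0.19 to 0.20. Hes5 was 14.7 ± 1.08 in controls and 16.1 ± 1.89 in nPM cortex, with 3 of 6 nPM libraries above all controls, and a log2 fold change of 0.12 (95% interval -0.041 to 0.28, adjusted p = 0.884). Nor did the outer radial glia markers. Hopx, a cofactor without DNA binding of its own, had a log2 fold change of 0.016 (95% interval -0.21 to 0.24) and Tnc had -0.025 (95% interval -0.18 to 0.13).

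Between the sexes, 9 of the 10 genes were lower and 1 (Fabp7) was higher in males in model 1. None passed at an unadjusted p under 0.05, where 6.09% of all genes did, and the smallest p was that of Pax6 (log2 fold change -0.25, unadjusted p = 0.103). The interaction called none of the 10 at that threshold either, where 9.68% of all genes passed, and in males alone the count was 0 of 10 where 4.51% passed.

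**Figure D4:**
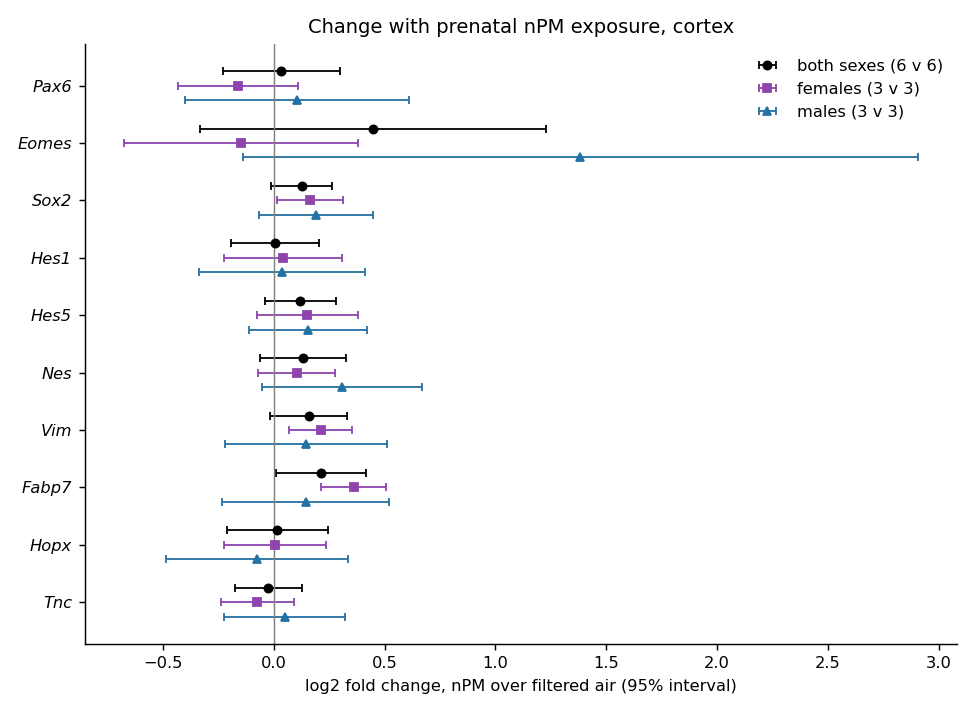
Log2 fold change of nPM over filtered air in cortex with its 95% interval from edgeR, over both sexes (black circles), in females (purple squares) and in males (blue triangles). The female Fabp7 interval, 0.21 to 0.51, lies wholly above 0, as do those of Vim and Sox2 in females and of Fabp7 over both sexes by smaller margins, and the male Eomes interval is the widest.

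Genes with related roles were followed in the same fits. Of 16 Notch pathway genes, 10 were higher and 6 lower in model 1, with a median log2 fold change of 0.026, and 2 had an unadjusted p under 0.05, both higher. These were Dner, a Notch ligand-like protein of neurons and glia (277 ± 10.6 against 304 ± 9.12 TMM-scaled CPM, SD, n = 6, log2 fold change 0.14, unadjusted p = 0.0032, adjusted p = 0.708), and Dll1, a ligand of newborn neurons and intermediate progenitors (0.14, adjusted p = 0.862). In 5 of 6 nPM libraries Dner lay above all controls. Of 19 other radial glia genes, 13 were higher and 6 lower with a median of 0.066, and 2 had an unadjusted p under 0.05.

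The stronger of these was Mfge8, a secreted lipid-binding bridge protein of radial glia and astrocytes. Mfge8 was 100.01 ± 5.95 TMM-scaled CPM in controls and 115 ± 7.49 in nPM cortex (SD, n = 6), with a log2 fold change of 0.21 (SE 0.049, unadjusted p = 0.00071, adjusted p = 0.493), and in females it rose by 0.28 on the log2 scale (SE 0.053, adjusted p = 0.0286). It was the only gene of the related and marker lists to pass after adjustment in females, where 1.11% of all genes passed (0.216% of all genes as higher). The other was Sox1, a sister factor of Sox2 (log2 fold change 0.23, adjusted p = 0.862).

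Of 10 genes of cycling cells, 8 were higher with a median of 0.14, and Cdk1, Birc5 and Top2a, which drive mitosis or untangle DNA, had unadjusted p under 0.05 at log2 fold changes of 0.35, 0.34 and 0.21 (adjusted p = 0.848, 0.858 and 0.862). Of 7 further outer radial glia genes, 2 were higher and 5 lower with a median of -0.051 and none had an unadjusted p under 0.05. Of 9 intermediate progenitor genes 8 could be tested, 6 were higher with a median of 0.12, and again none had an unadjusted p under 0.05. The gene left out was Neurog1, a proneural factor, which had no count in any cortex library of either exposure group.

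Markers of other cells and regions were followed in the same way, where 5.67% of all genes had an unadjusted p under 0.05. All 5 choroid plexus markers were higher in nPM cortex (median log2 fold change 0.39, summed level 30.4 to 394 TMM-scaled CPM in controls and 234 to 505 in nPM, none at an unadjusted p under 0.05), and in females alone the sums were 335 to 394 in controls and 382 to 505 in nPM. The lowest control sum, 30.4, was that of V14, and the median was not taken again without that library. All 4 ependymal markers were higher (median 0.24), among them Foxj1, the factor of motile cilia, at 0.30 (unadjusted p = 0.0252). All 8 ventral progenitor and striatal markers were higher (median 0.18), with Six3 at 1.28 and Isl1 at 0.94 (unadjusted p = 0.00863 and 0.0175), and their sum ran from 55.0 to 106 in controls and from 74.2 to 96.9 in nPM cortex. Of 7 cortical excitatory neuron markers 6 were lower (median -0.082), with Fezf2 at -0.16 (unadjusted p = 0.0122). None of these passed after adjustment.

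Further lists cover glia, vessels, blood and meninges. Astrocyte markers, which share several genes' cells with radial glia at this age, split 4 to 4 with a median of -0.022, and their sum was 1660 to 2601 in controls and 1716 to 2207 in nPM cortex. Oligodendrocyte precursor markers had a median of 0.074, endothelial markers 0.081, mural cell markers 0.033 and red cell markers -0.027, with no gene at an unadjusted p under 0.05. Of 4 meningeal fibroblast markers, Dcn, a matrix proteoglycan, was 19.6 ± 5.43 in controls and 30.0 ± 2.32 in nPM cortex (log2 fold change 0.62, unadjusted p = 0.00038, adjusted p = 0.493), while the median of the list was 0.080. The 3 olfactory bulb markers had a median of 0.18. The part of tissue content in the differences of the 10 genes was not tested.

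Only 4 of the possible pairs among the 10 genes, those joined by role, were compared across libraries. For these, the correlation of log2 levels over the 12 cortex libraries was strongest for the filaments Nes and Vim, with Pearson's r = 0.831 (permutation p = 0.00073, adjusted over 4 pairs 0.00292) and Spearman's rho = 0.762 (permutation p = 0.00542, adjusted 0.0217). It was 0.696 without the 2 libraries farthest from the median Nes level, V14 being among them, and 0.900 within the 8 libraries of lane 2. Pax6 and Eomes gave r = 0.681 (permutation p = 0.0149, adjusted 0.0297) and rho = 0.399 (permutation p = 0.201, adjusted 0.268), but r = 0.053 without V10 and V15, so that this relation rested on those libraries, although it was 0.659 without the 2 farthest from the median Pax6 level and 0.881 in lane 2.

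Sox2 and Fabp7 gave r = 0.343 (permutation p = 0.279, adjusted 0.372) and rho = 0.545 (permutation p = 0.0695, adjusted 0.139), with r = 0.694 without the 2 farthest libraries and 0.019 in lane 2. Hes1 and Hes5, which share the same input, gave r = 0.124 (permutation p = 0.709, adjusted 0.709) and rho = 0.063 (permutation p = 0.851, adjusted 0.851), with r = 0.202 without the 2 farthest libraries and -0.435 in lane 2. The mean of the 10 standardised levels was lowest in V14, at -1.09, against -0.391 to 0.808 in the other libraries. The genes that followed this mean most closely among 13626 protein-coding genes were Carhsp1, Isl1, Wdr86, Kcne2 and Ap1s2, with Pearson's r of 0.932, 0.923, 0.916, 0.913 and 0.908 over the same 12 libraries. They were picked as the highest of all genes compared, and how far their r rests on V14 was not tested.

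Blood, which lacks radial glia, gave the background. In 10 of the 12 blood libraries the counts of 9 genes lay between 0 and 15, where a level of 3 counts equals 0.137 to 0.221 CPM. Vim, whose product is also a filament of white cells and fibroblasts, was at 135 to 332 counts. Control female replicate 2 (V2) stood apart, with 2861 counts of Vim, 1311 of Tnc, 617 of Hopx, 432 of Hes1 and 212 of Nes, but 0 of Pax6 and of Eomes, which allows up to 3 counts. The same library held 20564 counts of Col1a1 and 4681 of Dcn, fibroblast matrix genes, against 75 to 309 and 2 to 24 in the other 11. V2 also held 4544 counts of Top2a and 612 of Cdk1, genes of cycling cells, against 373 to 945 and 18 to 59 in the others. The study excluded 1 blood sample for its distinct count distribution, without naming it in its text, and all 12 are used here. In nPM male replicate 2 (V5), Fabp7 had 61 counts and Hes5 had 6, against at most 10 and 1 in the other 10 libraries.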

How the data were processed

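Cortex and blood RNA of mouse neonates was sequenced after ribosomal RNA removal. The authors aligned reads to mm10 with HISAT2 after FastQC and Trimmomatic and counted them with featureCounts 1.5.0-p3 against Gencode M11, and the deposited table holds whole-number counts for 48709 genes; strand was not given in the sources used here. Per the labels, samples fall into exposure by sex groups of 3 per tissue, and litters are not labelled. The methods of the study drew the 3 pups of each sex and exposure from separate litters. Whether males and females of the same exposure were littermates is not given. The p-values measure the spread between pups, and those over both sexes treat the pups as independent although the dams were exposed.

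From these counts, genes lacking a count (minimum 1) in any of the fitted libraries were dropped and the rest tested with edgeR 4.0.16 (TMM, quasi-likelihood, RIN as a covariate, Benjamini-Hochberg over all genes) in R 4.3.3; in place of the voom fit of the study, which was run as an alternative with limma 3.58.1, DESeq2 1.42.0, other scalings, filters, lanes and left-out libraries. TMM-scaled CPM, RPKM and permutation tests (SciPy 1.17.1) used the same counts, and the tests were run on simulated data first. A floor of 3 counts equals 0.0887 to 0.135 CPM in cortex and covers counting error only.

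Named genes are the 10 members, up to 3 per related list by smallest p, and the 5 that best followed the members' mean. A few others are named outside this rule, to complete a list (as Ccdc153), to describe a library or for lack of counts (as Neurog1). One gene of a marker list is not reported here. The members, the lists and the tests were chosen with earlier results of these data known. Sequences come from RefSeq on GRCm38.p6.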

Additional observations from a re-analysis of the deposited data

Results flagged for a closer look

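In 12 of 40 groups of 6 libraries (10 genes by tissue and exposure), the highest library stood apart from the other 5 by Dixon's 95% limit. That limit flags about 1 in 20 groups of independent, normally distributed values. The rate does not carry over here, because many blood groups were near 0 counts and V2 alone gave 8 of the 12 flags. In cortex both were Eomes, at 5.34 CPM in V10 among controls and 8.14 CPM in V15 among nPM libraries. Among control blood libraries, V2 stood apart for 8 genes, with CPM of 0.614 for Sox2, 20.4 for Hes1, 0.189 for Hes5, 10.01 for Nes, 135 for Vim, 1.51 for Fabp7, 29.1 for Hopx and 61.9 for Tnc. Among nPM blood libraries, V5 stood apart with 0.325 CPM for Hes5 and 3.31 CPM for Fabp7.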

How the results depend on the processing

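Each of the 10 genes had at least 24 counts in every cortex library. Eomes, at 24 to 275 counts, is the least precise, with a spread between libraries of 87.5% of the mean. Its highest levels were in V10 and V15, at 136 and 275 counts. Groups of 3 and the few residual degrees of freedom limit the sex-stratified fits, and cortex content differed between libraries. No paired analysis was possible because the labels give no replicate numbers that tie a control pup to an nPM pup. The settings that leave out V10, V14 and V15 together, and those with a marker level as a covariate, were chosen after seeing the data. In females Fabp7 kept an adjusted p under 0.05 under another scaling, either other filter, voom, DESeq2 and without RIN; it lost it with either covariate (log2 fold change 0.34 with ventral and 0.29 with choroid plexus markers) and in 5 of 6 leave-one-out fits (0.28 to 0.44). The cause of the changes below was not tested.

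Counting genes with any count in any library, rather than in every library, raised the calls among the 10. At an unadjusted p under 0.05 the calls went to 4 over both sexes, 1 between sexes, 2 for the interaction and 2 in males. In those fits 6.23%, 5.92%, 8% and 5.16% of all genes passed. After adjustment the calls went to 1 over both sexes, 1 for the interaction, 2 in females and 1 in males. There the shares of all genes were 0.57%, 1.17%, 4.19% and 0.507%. The gene gained over both sexes was Fabp7 (adjusted p = 0.0113), in a fit that called 185 of 32461 genes after adjustment, against 3 of 20857. The unadjusted count over both sexes was 0 with DESeq2, in lane 2, without V10 and V15 and with the ventral covariate. Of all genes, 5.04%, 12.9%, 3.58% and 3.4% passed in those fits. Other counts were 1 between sexes in lane 2 (14.9% of all genes) and 2 with the ventral covariate (3.2%). For the interaction there was 1 without RIN (11%) and also 1 without V10, V14 and V15 (10.5%). In males there was 1 without RIN (3.58%). In females the ventral covariate left 1 unadjusted call (10.2% of all genes) and no adjusted call (0.198%). The choroid plexus covariate left no adjusted call there (0.603%). Leaving out 1 library at a time gave 0 to 4 unadjusted calls over both sexes (3.4% to 10.7% of all genes) and 0 to 2 between sexes (2.31% to 12.5%). It gave 0 to 1 for the interaction (6.52% to 11.6%) and 0 to 5 in males (2.67% to 7.65%). In females it gave 0 to 1 adjusted calls (0.104% to 1.74%).

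The differences whose signs changed passed after adjustment in no fit, except Eomes in males with the any-library filter (adjusted p = 0.000836). Over both sexes, the log2 fold change became -0.044 for Hes1 and -0.0094 for Hes5 in lane 2, and -0.066 for Pax6 without V10 and V15. Without V10, V14 and V15 it was -0.099 for Pax6 and -0.026 for Hes1. With the ventral covariate it was -0.087 for Pax6, -0.27 for Eomes and -0.050 for Hes1, and with the choroid plexus covariate -0.069 for Pax6 and -0.0038 for Hes1. In females it was -0.0046 for Hopx without RIN, and -0.0031 for Hes1 and 0.032 for Tnc with the ventral covariate. In males it was -0.0095 for Hes1, 0.048 for Hopx and -0.024 for Tnc without RIN. With the ventral covariate the male values were -0.36 for Pax6, -0.29 for Eomes, -0.0044 for Sox2, -0.033 for Hes1, -0.21 for Vim, 0.16 for Hopx and -0.13 for Tnc, and with the choroid plexus covariate -0.12 for Pax6, -0.11 for Vim and -0.11 for Tnc.

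For the sex difference, Tnc became 0.0030 with RLE scaling, 0.0037 with the any-library filter, 0.0029 with DESeq2, 0.00049 with a lane term and 0.15 in lane 2. Eomes became 0.17 and Hes5 0.0048 without RIN, Hes5 0.0073 in lane 2, and Nes 0.049 without V10 and V15 and 0.082 without V14 too. With the ventral covariate the values were 0.85 for Eomes, 0.041 for Sox2, 0.067 for Hes1, 0.17 for Nes, 0.11 for Vim and 0.047 for Tnc, and with the choroid plexus covariate 0.17 for Eomes, 0.12 for Nes, 0.041 for Vim and 0.12 for Tnc. For the interaction, Hes5 became 0.028 and Hopx 0.045 without RIN, 0.047 and 0.11 without V10 and V15, and 0.093 and 0.091 without V14 too, when Nes was -0.12. Hopx was 0.031 with the ventral covariate and 0.0065 with the choroid plexus covariate, when Nes was -0.041 and Tnc -0.0091. For the pairs, Hes1 and Hes5 gave r = -0.435 in lane 2, and Pax6 and Eomes r = 0.053 without V10 and V15.

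Leaving out 1 library at a time also turned signs. Over both sexes the ranges were -0.041 to 0.051 for Hes1, -0.051 to 0.092 for Hopx, -0.088 to 0.096 for Pax6 and -0.061 to 0.024 for Tnc. In females they were -0.33 to 0.045 for Eomes, -0.050 to 0.15 for Hes1, -0.080 to 0.10 for Hopx and -0.21 to 0.046 for Tnc. In males they were -0.11 to 0.40 for Fabp7, -0.17 to 0.22 for Hes1, -0.37 to 0.12 for Hopx, -0.046 to 0.47 for Pax6, -0.057 to 0.38 for Tnc and -0.052 to 0.53 for Vim. For the sex difference they were -0.66 to 0.041 for Eomes, -0.012 to 0.20 for Fabp7, -0.089 to 0.0022 for Hes1, -0.12 to 0.026 for Hes5, -0.17 to 0.034 for Hopx, -0.20 to 0.052 for Nes and -0.082 to 0.053 for Tnc. For the interaction they were -0.21 to 0.074 for Hes1, -0.15 to 0.14 for Hes5, -0.17 to 0.17 for Hopx, -0.099 to 0.23 for Nes, -0.17 to 0.033 for Sox2, -0.020 to 0.26 for Tnc and -0.25 to 0.038 for Vim.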
